A study of Mus musculus with 37 samples.

Results

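Marker genes of the cortical layers were followed across age, antibiotics and morphine. They are 10 genes out of 56980 genes counted in the series: 3 of the upper layers (Cux2, Rorb, Calb1) and 7 of the deep layers (Etv1, Fezf2, Bcl11b, Foxp2, Tle4, Nxph4, Syt6). They were chosen by name as known layer markers, not by a threshold on measured values, and all 10 passed the filter on low counts. The 37 libraries hold polyadenylated RNA of male mice of strain C57BL/6J with the wild type genotype, either adult (treatment started on postnatal day 55) or adolescent (postnatal day 25). Mice had antibiotics by mouth (Abx) or stayed on water (H2O), and were injected subcutaneously with morphine (15 mg/kg) or saline for 5 days. The groups held 5 adult Abx morphine, 5 adult Abx saline, 5 adult H2O morphine, 3 adult H2O saline, 5 adolescent Abx morphine, 4 adolescent Abx saline, 5 adolescent H2O morphine and 5 adolescent H2O saline libraries. The question named by the study is whether brief antibiotics act differently with age on morphine reward and on expression in the medial prefrontal cortex. The labels give the tissue as brain and the cell type as all, and the series title alone names the medial prefrontal cortex. They do not say whether each library is a separate animal, so p-values measure the spread between these libraries.

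The cerebral cortex is built of layers of excitatory neurons that are born at different times and project to different targets. Neurons of the upper layers mostly connect cortical areas with each other or receive sensory input, while those of the deep layers send axons to the brainstem, spinal cord and thalamus. In the prefrontal cortex the deep layers carry the output to the striatum, thalamus and midbrain and lie next to the myelinated white matter. Because the tissue is bulk, fewer neurons of a layer and less RNA of a marker per neuron cannot be told apart.

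Among the upper-layer markers, Cux2 encodes a homeodomain transcription factor, Rorb a nuclear receptor that marks the input layer of sensory cortex, and Calb1 the calcium-binding protein calbindin, which is also made by some interneurons. Among the deep-layer markers, Etv1 (an ETS-domain factor), Fezf2 (a zinc finger factor that specifies neurons projecting out of the cerebrum) and Bcl11b (a zinc finger factor also known as Ctip2) belong to the output neurons. Foxp2 (a forkhead factor), Tle4 (a Groucho-family corepressor) and Syt6 (a synaptotagmin of vesicle trafficking) mark neurons projecting to the thalamus in the deepest layer. Nxph4 encodes a neurexophilin, a secreted partner of neurexins, and is found near the border with the white matter. Bcl11b and Foxp2 are also well known markers of striatal projection neurons.

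Depth and library identity set what can be read from these genes. Totals were 10630727 to 31560468 counts in 35 libraries (median 15910823). The other 2 libraries, adolescent Abx saline 3 with 25165 counts and adult Abx morphine 4 with 58764, held at most 9 counts of any marker and are left out of the levels and tests below. Group sizes in the tests are therefore 4 for adult Abx morphine and 3 for adolescent Abx saline. One library, adolescent H2O saline 1, stood apart from the other 34. Slc17a7, the vesicular glutamate transporter gene of cortex, was at 1172 CPM there (counts scaled to library totals adjusted by edgeR's TMM factors), against 1494 to 1937 CPM in the others. Its 5 cortical excitatory genes summed to 3721 CPM, the lowest of all 35, against 4888 to 6731 CPM. Its 9 striatal marker genes summed to 1785 CPM, against 210 to 278 CPM in the other libraries. The dopamine receptor gene Drd2 was at 53.3 CPM there, against 0.517 to 2.69 CPM elsewhere. Its 6 oligodendrocyte genes summed to 18572 CPM, against 1153 to 6174 CPM. Results that rest on it are given with it (35 libraries) and without it (34 libraries).

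Positions are those of GENCODE M21 on GRCm38. Cux2 (ENSMUSG00000042589) lies at chr5:121856366-122050102 on the minus strand, Rorb (ENSMUSG00000036192) at chr19:18930605-19111196 on the minus strand, and Calb1 (ENSMUSG00000028222) at chr4:15881264-15908064 on the plus strand. Etv1 (ENSMUSG00000004151) lies at chr12:38779380-38870484 on the plus strand, Fezf2 (ENSMUSG00000021743) at chr14:12342094-12348189 on the minus strand, and Bcl11b (ENSMUSG00000048251) at chr12:107910403-108003602 on the minus strand. Foxp2 (ENSMUSG00000029563) spans chr6:14901349-15441977 on the plus strand and Tle4 (ENSMUSG00000024642) chr19:14448150-14598051 on the minus strand. Nxph4 (ENSMUSG00000040258) lies at chr10:127525473-127534559 on the minus strand and Syt6 (ENSMUSG00000027849) at chr3:103575231-103645569 on the plus strand. All are annotated as protein-coding. Cux2 overlaps Gm15637 and Gm3970, and Syt6 overlaps Atg4a-ps, on the opposite strand, and Foxp2 overlaps Gm25470 and Syt6 Gm43066 on their own strand. Reads from such pairs could be shared or dropped, since no source used here states whether counting took strand into account.

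The promoters of Cux2, Tle4 and Syt6 are shown because these genes carry the main pattern in the data, in which Cux2 varied against Tle4 and Syt6. Each is 300 bases from RefSeq (GRCm38.p6), 250 before and 50 after a RefSeq transcript start, written 5′ to 3′ on the gene's strand. RefSeq starts can differ from the GENCODE M21 starts given above. The Cux2 window lies inside the GENCODE gene, the Tle4 window lies wholly before the GENCODE start, and the Syt6 window spans it. The windows are chr5:122049802-122050101 (minus) for Cux2, chr19:14598134-14598433 (minus) for Tle4 and chr3:103574995-103575294 (plus) for Syt6. Capitals mark a match to the ROR half-site AGGTCA.
Cux2: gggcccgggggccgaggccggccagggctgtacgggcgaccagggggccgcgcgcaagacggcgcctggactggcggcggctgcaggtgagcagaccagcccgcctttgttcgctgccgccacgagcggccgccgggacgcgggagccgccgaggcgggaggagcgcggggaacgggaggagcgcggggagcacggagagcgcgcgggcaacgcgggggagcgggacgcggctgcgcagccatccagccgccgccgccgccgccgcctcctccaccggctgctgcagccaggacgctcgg
Tle4: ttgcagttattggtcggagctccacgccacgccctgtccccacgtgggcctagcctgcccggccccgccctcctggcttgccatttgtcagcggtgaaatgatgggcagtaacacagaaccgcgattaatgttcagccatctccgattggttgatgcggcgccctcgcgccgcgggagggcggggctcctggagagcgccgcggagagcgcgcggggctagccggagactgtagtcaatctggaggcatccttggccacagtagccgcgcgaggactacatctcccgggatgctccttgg
Syt6: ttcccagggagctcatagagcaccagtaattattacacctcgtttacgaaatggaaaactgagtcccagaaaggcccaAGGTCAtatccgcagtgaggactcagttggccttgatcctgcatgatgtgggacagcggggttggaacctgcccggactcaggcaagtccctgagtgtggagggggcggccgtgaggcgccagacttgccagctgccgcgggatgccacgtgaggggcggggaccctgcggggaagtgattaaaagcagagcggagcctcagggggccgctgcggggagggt
The Cux2 window is 80.3% G or C with 48 CpG dinucleotides, the Tle4 window 65.0% with 28, and the Syt6 window 61.0% with 16. The median of 32851 RefSeq mouse promoter windows is 52.7% and 7 CpG. Promoters of 7 of the 10 markers were matched, all but Calb1, Foxp2 and Nxph4. For each gene the window nearest to its annotated start was used. On both strands, AGGTCA was found in 1 of these 7 windows, that of Syt6, and in 16.3% of all windows. A CUX motif (ATCGAT, in 0.925% of all windows), an ETS motif (CCGGAAGT, 3.89%), a forkhead motif (GTAAACA, 3.65%) and a T-box motif (AGGTGTGA, 1.28%) were found in 0 of the 7. RefSeq gives 5 of the genes (Cux2, Rorb, Etv1, Tle4 and Syt6) further windows at other starts. Over all 13 windows AGGTCA was found in 2, both of Syt6, and ATCGAT in 1, the further window of Cux2, with the other 3 motifs in 0. These letters are a description of the windows only.

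Per kilobase of exon, the markers differed widely in level. The median over the 35 libraries was 23.5 CPM per kilobase for Calb1, 16.6 for Fezf2, 12.98 for Cux2, 10.3 for Etv1, 9.60 for Bcl11b, 9.12 for Tle4, 3.56 for Syt6, 2.33 for Rorb, 0.672 for Foxp2 and 0.551 for Nxph4. Nxph4 rested on 3 to 131 counts per library, so its values carry more counting error than those of the other markers, which had at least 50 counts each.

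Cux2, the upper-layer homeodomain factor, had similar levels in all 8 groups. Among adults, Cux2 was at 117, 129, 136 and 105 CPM in Abx morphine libraries, at 125, 142, 129, 154 and 93.3 CPM with Abx saline, at 131, 136, 133, 162 and 102 CPM with H2O morphine, and at 125, 149 and 139 CPM with H2O saline. Among adolescents, it was at 132, 133, 116, 108 and 137 CPM with Abx morphine, at 110.4, 129 and 146 CPM with Abx saline, at 151, 121, 126, 148 and 101 CPM with H2O morphine, and at 71.5, 141, 171, 137 and 123 CPM with H2O saline. The group means ran from 122 to 138 CPM, and to 143 ± 20.3 CPM (SD, n = 4) for adolescent H2O saline without the library that stood apart. Every pair of groups overlapped, while single libraries of 1 group, adolescent H2O saline, ran from 71.5 to 171 CPM. The lowest value is the library that stood apart. Rorb followed with group means of 24.9 ± 1.33 CPM (SD, n = 5, adolescent Abx morphine) to 29.9 ± 3.81 CPM (SD, n = 5, adult H2O morphine).

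Syt6, the synaptotagmin of thalamus-projecting neurons, varied far more between libraries. Among adults, Syt6 was at 18.5, 20.7, 18.0 and 27.0 CPM with Abx morphine, at 24.5, 14.5, 21.7, 8.10 and 36.8 CPM with Abx saline, at 15.4, 13.2, 14.9, 8.12 and 27.8 CPM with H2O morphine, and at 22.8, 9.42 and 18.7 CPM with H2O saline. Among adolescents, it was at 23.2, 22.3, 31.8, 31.1 and 25.8 CPM with Abx morphine, at 28.9, 21.5 and 15.3 CPM with Abx saline, at 12.9, 26.4, 17.9, 14.9 and 24.5 CPM with H2O morphine, and at 55.4, 11.9, 6.51, 16.2 and 23.5 CPM with H2O saline. High and low libraries occurred in the same group, and the library that stood apart was the highest of all. Adult Abx saline 5, with the second highest Syt6, had the second lowest Cux2, and adolescent H2O saline 3, with the lowest Syt6, had the highest Cux2.

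The other markers of the deepest layer also had high and low libraries within groups. Foxp2 ran from 3.38 CPM in adolescent H2O saline 3 to 18.7 CPM in adult H2O morphine 5 among the 34 libraries, and was at 30.7 CPM in the library that stood apart. Tle4 ran from 28.8 CPM in adolescent H2O saline 3 to 78.3 CPM in adult Abx saline 5, against 83.1 CPM in the library that stood apart. Nxph4, the neurexophilin, ran from 0.198 CPM in adult H2O saline 3 to 6.25 CPM in adult Abx saline 5, and was at 4.50 CPM in the library that stood apart.

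The output-neuron markers varied less. Fezf2 had group means of 44.5 ± 6.72 CPM (SD, n = 3, adult H2O saline) to 54.9 ± 6.04 CPM (SD, n = 3, adolescent Abx saline). Bcl11b ran from 51.6 to 107 CPM among the 34 libraries and was at 152 CPM in the library that stood apart, where striatal genes were high too. Without that library, its adolescent H2O saline mean was 74.3 ± 15.9 CPM (SD, n = 4), and 89.8 ± 37.3 CPM with it (SD, n = 5).

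**Figure D1:**
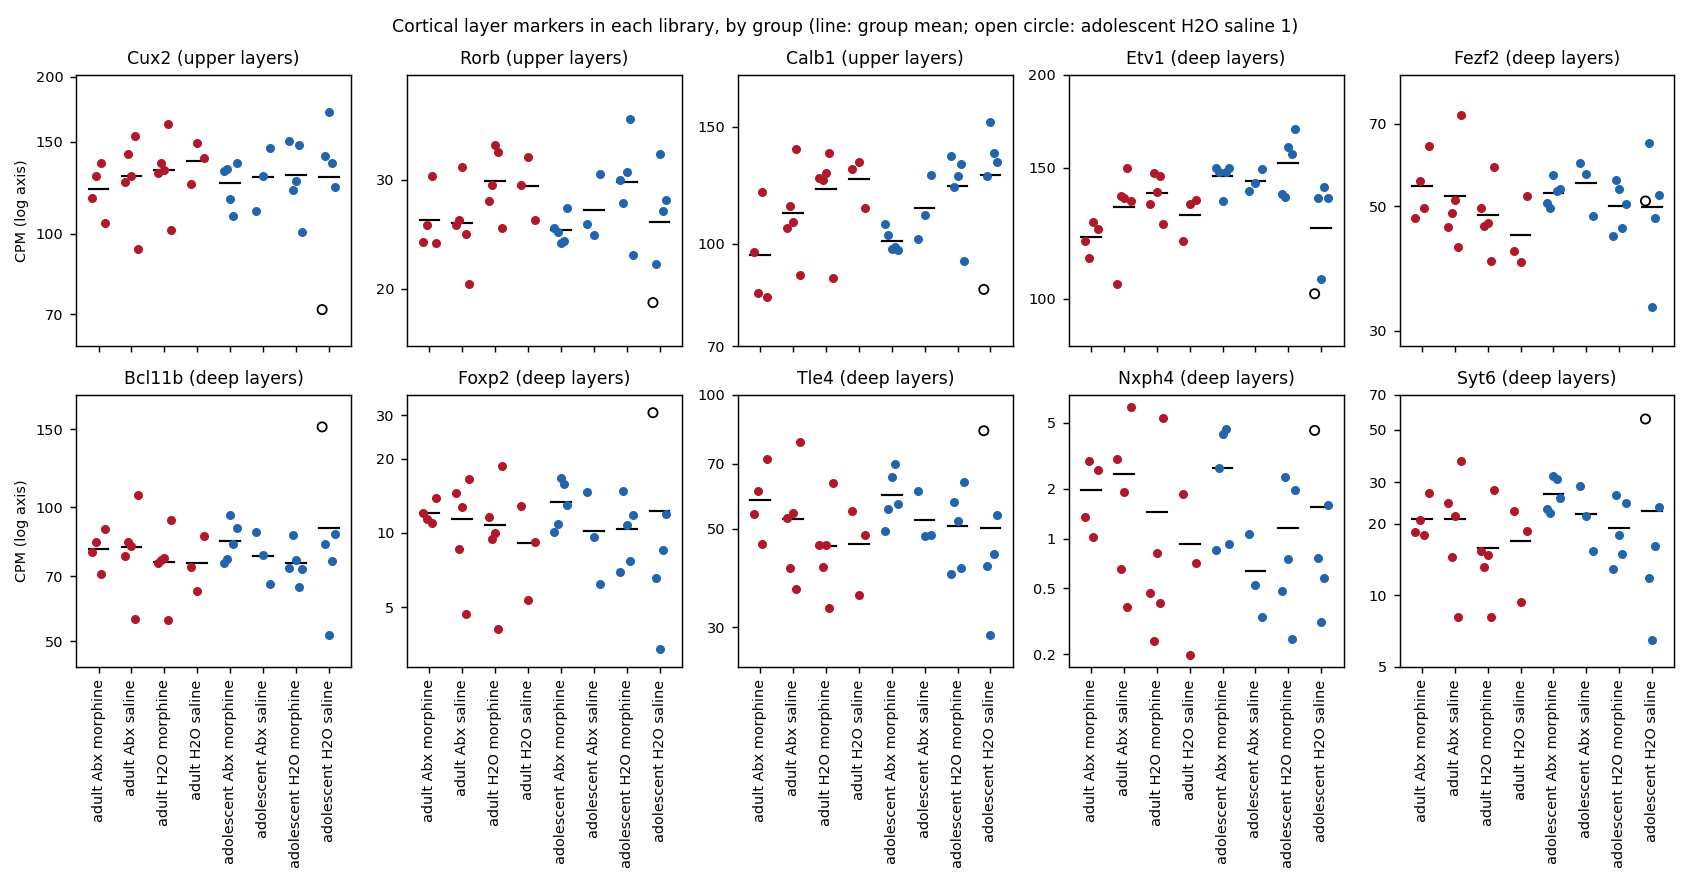
CPM of each marker (log axis) in 35 libraries, with 1 point per library, the 8 groups along the x axis, adults in red and adolescents in blue, and a line at each group mean. Foxp2, Nxph4 and Syt6 spread more widely than Cux2 and Etv1 within most groups, though Foxp2 does not in adult Abx morphine (10.98 to 13.9 CPM); the open circle is adolescent H2O saline 1, at 71.5 CPM for Cux2 and 55.4 CPM for Syt6.

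Within groups, the markers differed in how widely they spread. Over the 34 libraries, the SD of log2 CPM around the group means was 1.19 for Nxph4, 0.59 for Foxp2 and 0.58 for Syt6, against a median of 0.13 over 16366 genes with a mean of at least 1 CPM. These values exceed those of 99.97%, 98.9% and 98.8% of the genes. The SD was 0.32 for Tle4, 0.24 for Bcl11b, 0.23 for Fezf2, 0.21 for Cux2, 0.20 for Rorb, 0.19 for Calb1 and 0.13 for Etv1. Tle4 thus exceeded 86.3% of the genes, the markers from Bcl11b to Calb1 75.5% to 66.5%, and Etv1 47.1%. The ratio of the highest to the lowest of the 34 libraries was 31.7 for Nxph4, 5.65 for Syt6 and 5.54 for Foxp2, but 1.83 for Cux2 and 1.61 for Etv1. Differences between the 8 group means held 9.44% (Bcl11b) to 47.2% (Calb1) of the variance of log2 CPM between libraries, where the median gene had 33.9%. Calb1 and Etv1 (45.9%) were the 2 markers above that median.

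The libraries varied along an axis of upper against deep layers. With the group means removed, Cux2 and Syt6 had r = -0.92 over 35 libraries (Spearman's rho -0.91), and Cux2 and Tle4 had r = -0.95 (rho -0.91), each with an adjusted p of 2.65e-05 by permutation of libraries within groups. Foxp2 and Syt6 had r = 0.98 (rho 0.97) and Tle4 and Syt6 r = 0.96 (rho 0.94), with the same adjusted p. An unadjusted p of 1e-05 is the smallest that 100000 resamples can give, and p-values are adjusted over 45 pairs. Without the library that stood apart, these 4 pairs had r = -0.89, -0.94, 0.97 and 0.94 (adjusted permutation p = 2.5e-05 each). Leaving out the 2 libraries farthest from the median as well gave r = -0.86 for Cux2 and Syt6, -0.92 for Cux2 and Tle4, 0.97 for Foxp2 and Syt6 and 0.93 for Tle4 and Syt6.

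Across all pairs the signs followed the layers, with 1 marker outside the pattern. The 3 pairs of upper-layer markers were all positive and past the threshold, with r of 0.74 to 0.87 over 35 libraries and 0.68 to 0.82 over 34. Of the 21 pairs of an upper with a deep marker, 18 were negative and past the threshold in both sets. Of the 21 pairs of deep markers, 15 were positive and past it in both sets. The remaining 9 pairs all contained Etv1. Etv1 with Nxph4 passed as a negative pair over 35 libraries (r = -0.43, rho -0.43, adjusted permutation p = 0.0379) and not over 34 (r = -0.34, adjusted permutation p = 0.122). Etv1 had r = 0.03 with Cux2 and -0.15 with Syt6 over 34 libraries. The weakest pairs past the threshold involved Rorb, such as Rorb with Foxp2 (r = -0.47, rho -0.47, adjusted permutation p = 0.0252, 34 libraries). The share of pairs of other genes that would pass this test was not counted.

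**Figure D2:**
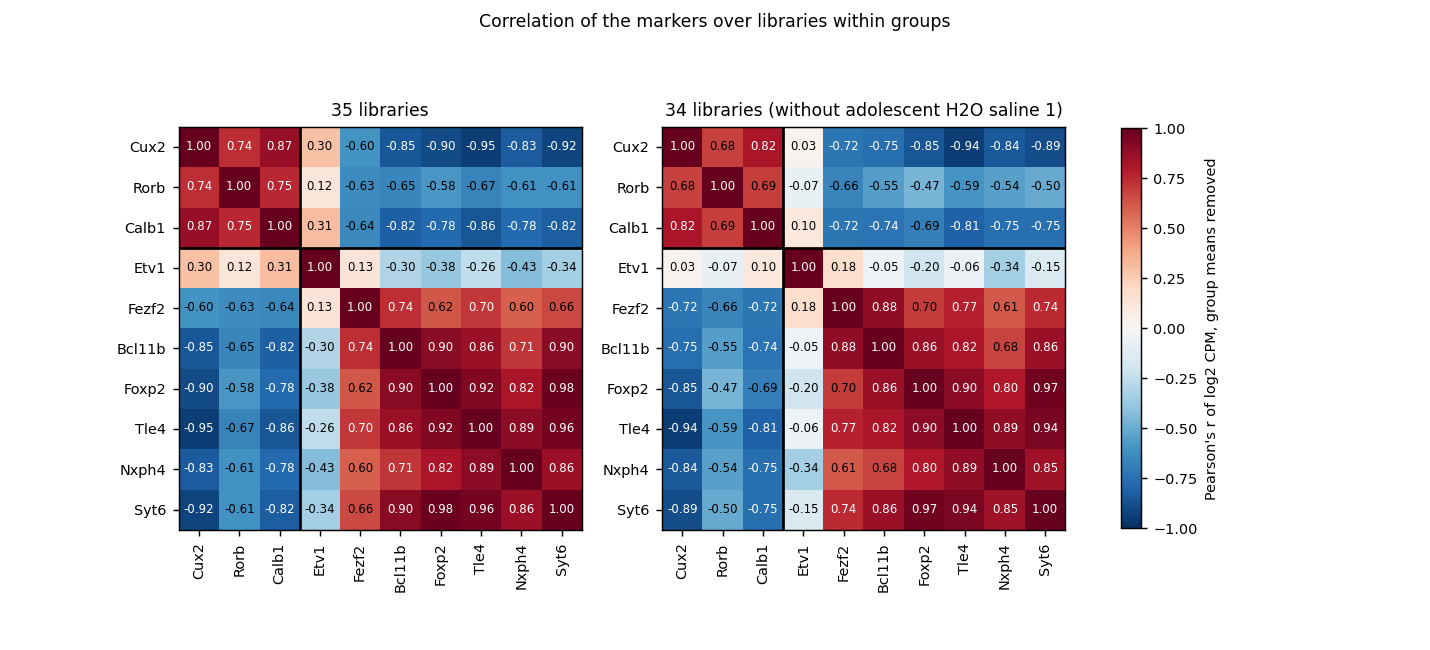
Pearson's r of log2 CPM between the 10 markers with group means removed, over 35 libraries (left) and 34 libraries (right); red is positive, blue is negative and the black lines separate upper from deep markers. The blocks of upper markers and of deep markers other than Etv1 are red and the blocks between them blue, and the Etv1 row stays between -0.43 and 0.31.

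The pattern was present at both depths and both ages. In the 17 of the 34 libraries with totals over the median, the 18 pairs of upper with deep markers other than Etv1 had r of -0.93 to -0.60, and in the 17 others -0.95 to -0.34. The 15 deep pairs had r of 0.64 to 0.96 and 0.56 to 0.98. Within the 17 adult libraries the upper-deep pairs had r of -0.95 to -0.43, and within the 17 adolescent ones of the 34 -0.93 to -0.51. These values are descriptions without a test, and the labels name no batch of extraction or sequencing.

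The ratio of Cux2 to Syt6 CPM puts this axis in 1 number per library. It was 1.29 in the library that stood apart and ran from 2.54 in adult Abx saline 5 to 26.3 in adolescent H2O saline 3 among the other 34. The lowest, median and highest ratios were 3.88, 6.27 and 7.57 in adult Abx morphine, 2.54, 5.97 and 19.0 in adult Abx saline, 3.65, 8.93 and 19.96 in adult H2O morphine, and 5.48, 7.47 and 15.9 in adult H2O saline. They were 3.47, 5.30 and 5.96 in adolescent Abx morphine, 3.81, 6.00 and 9.53 in adolescent Abx saline, 4.11, 7.05 and 11.7 in adolescent H2O morphine, and 1.29, 8.44 and 26.3 in adolescent H2O saline. Each Abx group had a lower median than the H2O group of the same age and injection, and all 4 such pairs overlapped.

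**Figure D3:**
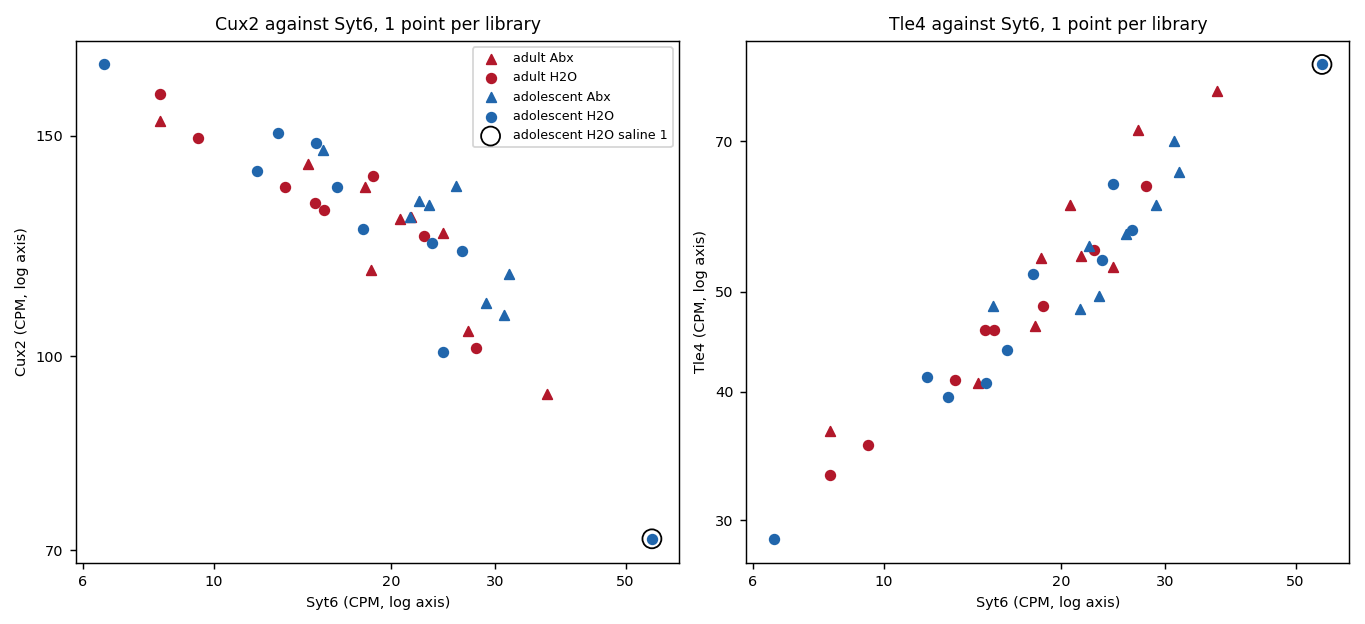
Cux2 (left) and Tle4 (right) against Syt6, in CPM on log axes, with 1 point per library; triangles are Abx, circles H2O, red adult and blue adolescent, and the ringed point is adolescent H2O saline 1. Cux2 declines and Tle4 climbs with Syt6 across all groups, from 6.51 to 55.4 CPM of Syt6.

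Further layer genes and genes of white matter moved with the axis. The lists were 10 further upper-layer genes, 16 further deep-layer genes and 9 lists of other cell types, giving 110 correlations of a marker with a list mean over which p-values are adjusted. Over 34 libraries, the mean of the further deep-layer genes had r = 0.96 with Tle4 (rho 0.95), 0.93 with Syt6 (rho 0.94) and -0.94 with Cux2 (rho -0.93), each with an adjusted permutation p of 8.46e-05, and r = -0.11 with Etv1 (adjusted permutation p = 0.748). The mean of the 6 oligodendrocyte genes, such as Mbp and Mog, which encode myelin proteins, had r = 0.84 with Tle4 (rho 0.84), 0.81 with Nxph4 (rho 0.84) and -0.84 with Cux2 (rho -0.79), with adjusted permutation p = 8.46e-05, 8.46e-05 and 8.46e-05. Without the 2 libraries farthest from the median these 3 values were 0.80, 0.81 and -0.77. Over the 34 libraries 6 deep markers passed as positive and 3 upper markers as negative with the oligodendrocyte list, and the same counts held for the 9 striatal genes. The striatal list had r = 0.70 with Syt6 (rho 0.62, adjusted permutation p = 0.00125) and 0.69 with Bcl11b (rho 0.60, adjusted permutation p = 0.00292) without the library that stood apart. All 9 striatal genes were also counted in every one of those 34 libraries. The cortical excitatory and astrocyte lists passed with 0 of the 10 markers by this test, with r between -0.33 and 0.33. The endothelial list passed with Fezf2 alone (negative) and the choroid plexus gene Kl with Rorb alone (negative). The microglial list passed with Rorb, Calb1 and Fezf2 (r between -0.45 and 0.47), and Slc17a6, the glutamate transporter gene of subcortical neurons, with Cux2, Calb1, Foxp2, Tle4 and Syt6 (r between -0.56 and 0.55). Etv1 passed with 1 list, that of interneurons (r = 0.50, rho 0.55, adjusted permutation p = 0.0321). The mean of the further upper-layer genes passed as positive with the 3 upper markers and as negative with 6 deep markers (r = 0.81 with Cux2). The part of oligodendrocyte or striatal RNA in the layer pattern was not tested.

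**Figure D4:**
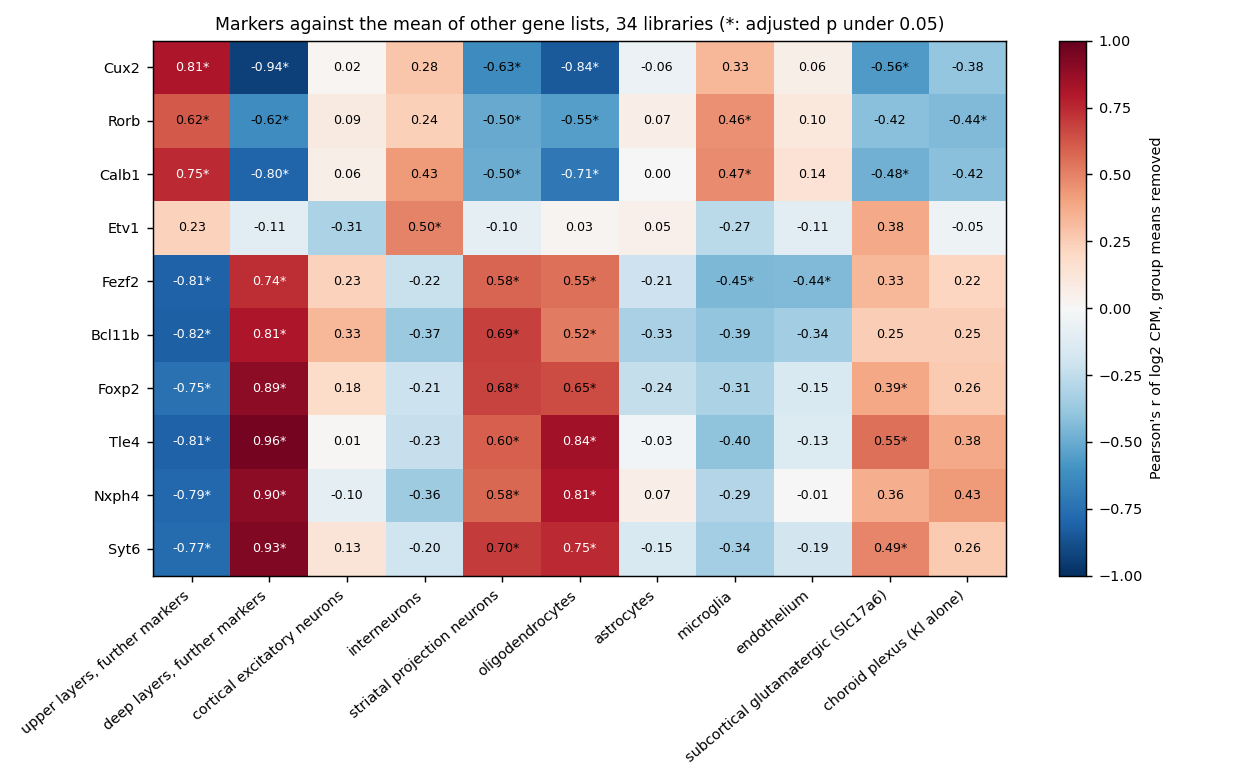
Pearson's r of each marker with the mean log2 CPM of 11 gene lists, group means removed, over 34 libraries, with * for an adjusted permutation p under 0.05. The upper markers and the deep markers other than Etv1 have opposite signs against the further layer lists, the oligodendrocyte list and the striatal list; the choroid plexus column rests on Kl alone and the subcortical glutamatergic column on Slc17a6.

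For each marker the 3 genes with the most similar pattern over the 34 libraries were looked up among 13355 genes by r with group means removed, as a description. Cux2 was most like Kcnh3 (r = 0.93), Slc30a3 (0.91), the zinc transporter of synaptic vesicles, and Begain (0.91). Rorb had Cacna2d1 (0.81) and Stxbp6 (0.80) among its 3, and Calb1 was most like Stxbp6 (0.91), Camk2n1 (0.90) and Prmt8 (0.89). Etv1 was most like Pcsk1 (0.81), a prohormone convertase, Cntn3 (0.76) and Fosl2 (0.69). Fezf2 and Bcl11b shared Spon1 (0.91 and 0.92), and Bcl11b was also most like the kainate receptor gene Grik3 (0.92) and the dopamine receptor gene Drd1 (0.91). Fezf2 was also most like Adgra1 (0.90) and Cbln1 (0.89). Foxp2 and Syt6 were the most like each other (0.97), with Rprm next for both (0.96 with Foxp2 and 0.95 with Syt6), then Krt80 for Foxp2 (0.93) and Hs3st4 for Syt6 (0.95). Tle4 was most like Nxph3 (0.96), Hs3st4 (0.95) and Syt6 (0.94), and Nxph4 like Sema5b (0.91), Nxph3 (0.90) and Sema5a (0.89). Rprm, Hs3st4 and Nxph3 are on the list of further deep-layer genes.

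Against this background, Abx and H2O groups were compared within each age and injection and as the mean of the 4 comparisons. Calb1, the calbindin gene, was lower with Abx in that mean, and no other marker passed. Among adults, Calb1 was at 97.1, 84.3, 119 and 83.2 CPM with Abx morphine, against 126, 125, 128, 137 and 88.8 CPM with H2O morphine. Adult Abx saline libraries had 106, 114, 108, 139 and 89.8 CPM, against 129, 132 and 113 CPM with H2O saline. Both adult pairs overlapped, the first through the single low library adult H2O morphine 5. Among adolescents, it was at 107, 103, 98.0, 99.0 and 97.8 CPM with Abx morphine, against 136, 122, 127, 132 and 94.3 CPM with H2O morphine. Adolescent Abx saline libraries had 102, 110.4 and 127 CPM, against 85.3, 126, 152, 137 and 133 CPM with H2O saline, where 85.3 is the library that stood apart. The adolescent pairs overlapped as well, with the Abx medians below the H2O medians in all 4 comparisons.

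Averaged over the 4 comparisons, the log2 fold change of Calb1 (Abx over H2O) was -0.23 ± 0.07 (SE, 35 libraries), with an adjusted p of 0.0395 in edgeR's quasi-likelihood test over 19332 genes. In this contrast 10.2% of all genes tested passed, and 1 of the 10 markers. The 4 single comparisons gave -0.33 ± 0.14 (adult morphine), -0.17 ± 0.15 (adult saline), -0.27 ± 0.13 (adolescent morphine) and -0.16 ± 0.15 (adolescent saline), all below 0 and none past the threshold by edgeR. In those single comparisons 1.92%, 0.031%, 1.11% and 0.0103% of all genes passed and 0 of the 10 markers, with 2, 0, 0 and 1 markers at an unadjusted p under 0.05 and 0 by DESeq2. Over 34 libraries the 4 Calb1 differences were -0.33 ± 0.13, -0.18 ± 0.14, -0.27 ± 0.12 and -0.28 ± 0.14, in the same order. In these fits 0 of the 10 markers passed by edgeR, and the shares of all genes are not given here. In the adolescent morphine comparison Calb1 and Rorb then had unadjusted p of 0.0290 and 0.0451 by edgeR. In the adolescent saline comparison Calb1 had 0.0606. Without the library that stood apart, the mean difference of Calb1 was -0.26 ± 0.07 (edgeR adjusted p = 0.00702, where 13% of 19253 genes passed). The call was lost in 21 of 35 fits that each left out 1 library, with adjusted p of 0.00702 to 0.0824 by edgeR and log2 fold changes of -0.26 to -0.21. The libraries whose removal ended it were adult Abx morphine 1, 2 and 5, adult Abx saline 1 and 5, adult H2O morphine 1, 2, 3 and 4, adult H2O saline 1 and 3, adolescent Abx morphine 3 and 5, adolescent Abx saline 1 and 2, adolescent H2O morphine 1, 3 and 4, and adolescent H2O saline 3, 4 and 5. The call was also lost without a filter on low counts (-0.24, edgeR adjusted p = 0.105).

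Deep-layer and myelin genes had higher medians with Abx, with overlapping ranges. With Abx the 16 further deep-layer genes summed to 636 to 1008 CPM (median 794, n = 17), against 558 to 908 CPM (median 722, n = 17) with H2O among the 34 libraries, and the 6 oligodendrocyte genes to 1587 to 6174 CPM (median 2512), against 1153 to 5835 CPM (median 1802). Among the other lists, the medians were 264 CPM with Abx, against 241 CPM with H2O, for striatal genes, 729 CPM, against 810 CPM, for astrocyte genes and 258 CPM, against 287 CPM, for microglial genes, and these ranges overlapped too. The part of these 4 cell type lists in the Calb1 difference was not tested. With the mean log2 CPM of the 16 further deep-layer genes as a term in the model, a setting chosen after seeing the data, the Calb1 difference was -0.11 ± 0.04 (edgeR adjusted p = 0.125, 35 libraries) or -0.14 ± 0.04 (adjusted p = 0.0265 by edgeR, 34 libraries). Those 16 genes had a higher median with Abx and varied against Cux2 within groups, and Cux2 varied with Calb1. A smaller difference could therefore be foreseen, so this fit cannot show what part the layers had. All 3 upper markers were below 0 in the Abx mean, with a median of -0.15 over the upper markers, and 6 of the 7 deep markers were above 0, with a median of 0.15, where the median of all genes tested was close to 0. The markers other than Etv1 varied together between libraries within groups, so these signs are not separate observations. Over 34 libraries the upper and deep medians were -0.17 and 0.26. Rorb had -0.15 ± 0.07 (edgeR adjusted p = 0.195) over 35 libraries and -0.17 ± 0.07 (edgeR adjusted p = 0.0804) over 34. Syt6 had 0.27 ± 0.23 (edgeR adjusted p = 0.522) over 35 and 0.43 ± 0.19 (edgeR adjusted p = 0.141) over 34. Tle4 had 0.20 ± 0.12 over 35 and 0.26 ± 0.11 over 34, with edgeR adjusted p of 0.350 and 0.115. Foxp2 had 0.12 ± 0.23 and 0.30 ± 0.19, and Nxph4, with the widest spread, 0.38 ± 0.48 and 0.63 ± 0.47, in the same order of 35 and 34 libraries, none past the threshold by edgeR.

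**Figure D5:**
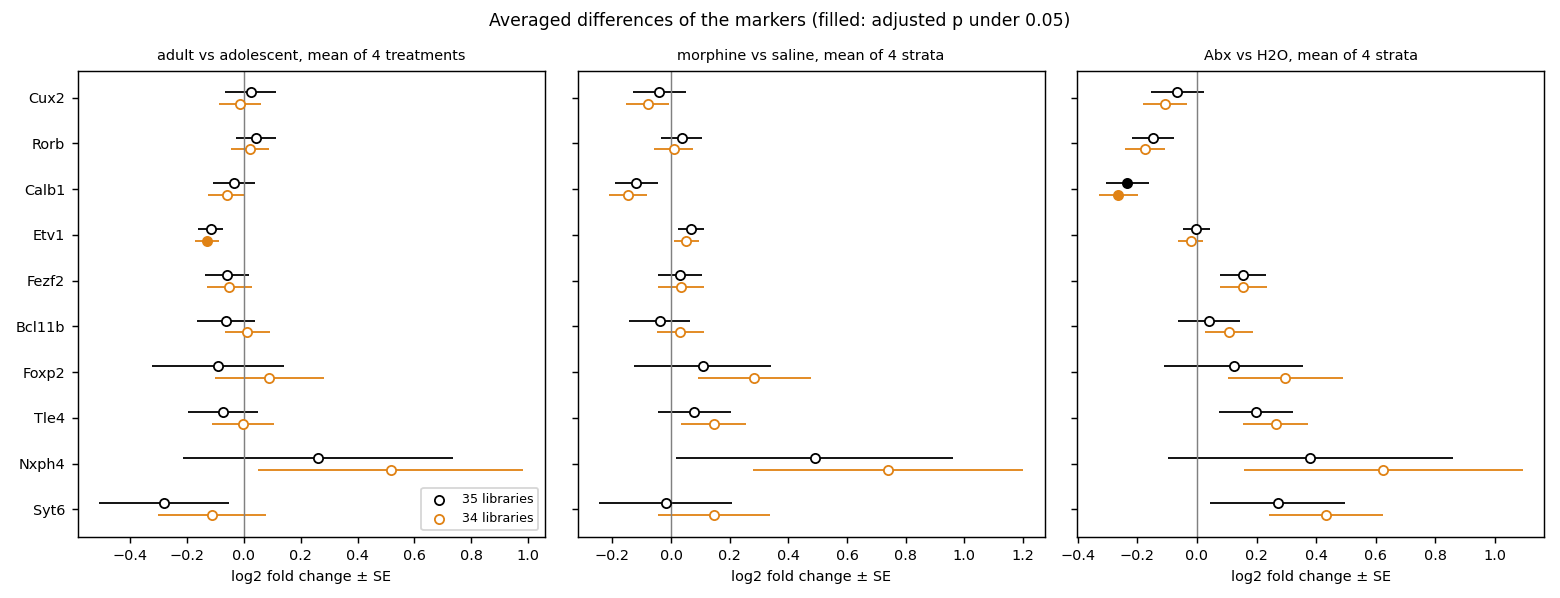
Log2 fold change ± SE of each marker for adult over adolescent, morphine over saline and Abx over H2O, each averaged over 4 comparisons, with 35 libraries (black) and 34 libraries (orange) and filled points for an adjusted p under 0.05. Calb1 in the Abx panel is filled in both sets and Etv1 in the age panel in the 34 libraries only, and the bars of Nxph4, Foxp2 and Syt6 are the longest.

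Age was compared between adult and adolescent mice in each of the 4 treatments. Etv1, the ETS factor of output neurons, was the marker nearest to the threshold, and 0 of the 10 markers passed over 35 libraries. With Abx and morphine, Etv1 was at 119.6, 114, 127 and 124 CPM in adults, against 149.7, 148, 135, 148 and 149.9 CPM in adolescents. With Abx and saline, it was at 105, 137, 136, 149.8 and 135 CPM in adults, against 139, 143 and 149.5 CPM in adolescents. The first pair did not overlap and the second did. The share of all genes without overlap between the first pair of groups was not counted.

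With H2O and morphine, Etv1 was at 134, 148, 139, 146 and 126 CPM in adults, against 138, 137, 160.0, 157 and 169 CPM in adolescents. With H2O and saline, it was at 119.5, 134 and 136 CPM in adults, against 102, 137, 106, 141 and 136 CPM in adolescents. Both H2O pairs overlapped, and in the saline pair the adolescent libraries held both the lowest and the highest value.

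The mean of the 4 age differences was -0.12 ± 0.04 for Etv1 on the log2 scale (edgeR adjusted p = 0.0616), in a contrast where 20.3% of all genes passed. Over 34 libraries it was -0.13 ± 0.04 (edgeR adjusted p = 0.0228, where 25.3% of genes passed), past the threshold. Leaving out adult Abx saline 4, adolescent H2O morphine 2 or adolescent H2O saline 3 instead also put it past the threshold, over a range of adjusted p of 0.0228 to 0.142 by edgeR. Within Abx and morphine the difference was -0.27 ± 0.09 (edgeR adjusted p = 0.0971, with 1.87% of genes past it) over 35 libraries and -0.28 ± 0.08 (edgeR adjusted p = 0.0465, with 4.23% past it) over 34. The other 3 age differences over 35 libraries were -0.12 ± 0.09 (Abx saline), -0.14 ± 0.08 (H2O morphine) and 0.06 ± 0.09 (H2O saline), the last with the opposite sign. Over 34 libraries the H2O saline difference was 0.006 ± 0.09. Fitted on the Abx morphine groups alone, the difference was -0.27 ± 0.05 (edgeR adjusted p = 0.00639). The term for further deep-layer genes left the averaged Etv1 difference at -0.12 ± 0.04 (edgeR adjusted p = 0.0430). For this fit and the fit on the Abx morphine groups alone, the share of all genes past the threshold is not given here.

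The remaining markers did not pass in any age comparison over 35 libraries. The oligodendrocyte genes summed to 1551 to 5498 CPM (median 1817, n = 17) in adults, against 1153 to 6174 CPM (median 2575, n = 17) in adolescents of the 34 libraries, and their part in the age differences was not tested. For H2O saline, H2O morphine and Abx saline, 3.39%, 0.626% and 1.39% of all genes passed, while 0 of the 10 markers passed by edgeR or DESeq2 and 0 had an unadjusted p under 0.05. In the averaged age contrast Syt6 had -0.28 ± 0.23 (edgeR adjusted p = 0.417) over 35 libraries and -0.11 ± 0.19 (edgeR adjusted p = 0.718) over 34. Nxph4 had 0.26 ± 0.48 (edgeR adjusted p = 0.743) over 35 libraries and 0.52 ± 0.47 (edgeR adjusted p = 0.453) over 34. Cux2 was at 0.02 ± 0.09 and Rorb at 0.04 ± 0.07, with edgeR adjusted p of 0.878 and 0.703.

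Between morphine and saline libraries, 0 of the 10 markers passed in any of the 4 comparisons or their mean by edgeR or DESeq2. Of all genes, 0.331% passed in adolescents on H2O, 0.0466% in adolescents on Abx and 0% in adults on H2O and on Abx, and 0.316% in the mean. In the 2 adult comparisons, 559 (H2O) and 1524 (Abx) genes had an unadjusted p under 0.05 by edgeR, and DESeq2 called 0 and 19 genes. Over 35 libraries 1 marker had an unadjusted p under 0.05 by edgeR, Etv1 in adolescents on H2O. The adolescent H2O values given above put the morphine libraries at 137 to 169 CPM, against 102 to 141 CPM with saline, a log2 fold change of 0.29 ± 0.08 (edgeR adjusted p = 0.110). The groups overlapped only between 137 and 141 CPM. Without the library that stood apart, which had the 102 CPM, it was 0.23 ± 0.08 (edgeR adjusted p = 0.259). It passed in 2 of 35 fits that each left out 1 library, those without adolescent H2O saline 4 or 5 (adjusted p = 0.0413 and 0.0480 by edgeR), and not in the other 33, with adjusted p up to 0.291. In the other 3 comparisons Etv1 had -0.13 ± 0.09 (adult Abx), 0.09 ± 0.09 (adult H2O) and 0.02 ± 0.09 (adolescent Abx). In the mean over the 4 comparisons the markers ran from Calb1 at -0.12 ± 0.07 (edgeR adjusted p = 0.578) to Nxph4 at 0.49 ± 0.47 (edgeR adjusted p = 0.744). Over 34 libraries Nxph4 was at 0.74 ± 0.46 (edgeR adjusted p = 0.468), Foxp2 at 0.28 ± 0.19, against 0.11 ± 0.23 over 35, and Syt6 at 0.15 ± 0.19, against -0.02 ± 0.23 over 35. Calb1 was at -0.15 ± 0.07 in that mean over 34 libraries (unadjusted p = 0.0311 and adjusted p = 0.271, edgeR). In adolescents on Abx, Nxph4 was at 2.04 ± 0.97 over 34 libraries (unadjusted p = 0.0448 and adjusted p = 0.506, edgeR).

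Whether the effects depend on each other was tested with 3 interactions, and 0 of the 10 markers passed in any by edgeR or DESeq2. Of all genes 0.00517% passed for age by morphine, 0% for age by Abx and 0.00517% for Abx by morphine. For age by Abx, 950 genes had an unadjusted p under 0.05 by edgeR and DESeq2 called 0 genes. Etv1 had the only unadjusted p under 0.05, for Abx by morphine, where the effect of morphine was lower with Abx than with H2O by a log2 difference of -0.25 ± 0.09 (unadjusted p = 0.00901 and adjusted p = 0.833, edgeR). It was -0.18 ± 0.09 for age by morphine (edgeR adjusted p = 0.786) and -0.16 ± 0.09 for age by Abx (edgeR adjusted p = 0.941). Calb1 had -0.13 ± 0.15 for Abx by morphine and -0.03 ± 0.15 for age by Abx over 35 libraries, and -0.07 ± 0.13 and 0.02 ± 0.13 over 34. The lower level of Calb1 with Abx was thus not shown to differ between ages or injections. Over 34 libraries 0 of the 10 markers passed in any interaction by edgeR, with the lowest adjusted p at 0.868 for Abx by morphine.

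The further layer genes gave a similar picture in the same fits. All 10 upper and 16 deep genes were tested. In the averaged age contrast, 1 of the 10 upper genes was higher in adults, Rasgrf2, an exchange factor for Ras, by a log2 fold change of 0.28 ± 0.09 (edgeR adjusted p = 0.0279), and 9 did not pass. Of the 16 deep genes, Deptor, an inhibitor of mTOR, was higher in adults (0.22 ± 0.03, edgeR adjusted p = 1.55e-05). Sulf2, an extracellular sulfatase (-0.18 ± 0.03, edgeR adjusted p = 7.44e-05), and the neurotensin receptor gene Ntsr1 (-0.52 ± 0.17, edgeR adjusted p = 0.0307) were lower in adults, and 13 deep genes did not pass. The median log2 fold change was 0.09 over the upper list and 0.04 over the deep list, with 20.3% of all genes past the threshold.

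In the averaged Abx contrast, 0 of the 10 upper genes passed by edgeR over 35 libraries and 1 of the 10 was above 0. The genes named here for Abx were singled out after their values were seen. Over 34 libraries, where 13% of all genes passed, Lhx2, a LIM homeodomain factor, was lower with Abx (-0.20 ± 0.05, edgeR adjusted p = 0.0141). Of the 16 deep genes 11 were above 0 and 2 were higher with Abx and past the threshold. They were Tbr1, a T-box factor of deep-layer neurons (0.13 ± 0.04, edgeR adjusted p = 0.0268), and Npr3, the natriuretic peptide clearance receptor gene (0.25 ± 0.07, edgeR adjusted p = 0.0294). Over 34 libraries Pou3f1 passed as well (0.11 ± 0.04, edgeR adjusted p = 0.0444). The list medians were -0.07 for upper and 0.12 for deep genes in a contrast where 10.2% of all genes passed. Both list means varied with the markers between libraries, so these signs are not independent of the markers' signs. With morphine, Deptor alone of the 26 genes passed in the averaged contrast, as higher (0.15 ± 0.03, edgeR adjusted p = 0.0449). Of all genes, 0.316% passed in that contrast.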

How the data were processed

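The deposited table holds whole-number read counts per gene for 37 libraries of polyadenylated RNA, and its column names carry STAR's gene count suffix, per the file headers. Per the submitters' processing notes, the tools were STAR 2.7.10a and DESeq2, with mm10 as the build; the annotation release and the strand setting are not stated there. All columns matched a library (0 unmatched), and 12923 of 56980 genes were at 0 throughout. Gene symbols were taken from GENCODE M21, where 52073 identifiers were found (52038 in another version); the 4907 others held 3.86% of counts.

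Libraries under 1000000 counts were left out. The other 35, with 10630727 to 31560468 counts, were scaled by TMM and fitted together with 8 group means in edgeR 4.0.16 (R 4.3.3, limma 3.58.1) with the robust quasi-likelihood test, on 19332 genes kept by filterByExpr. P-values were adjusted by Benjamini-Hochberg over those genes, with a threshold of 0.05. Levels are CPM, and correlations and spreads use log2 CPM (prior count 2) minus group means, with p-values from two-sided permutation of libraries within groups. DESeq2 1.42.0, other size factors, no filter, all 37 libraries, a replicate block and leaving out each library were alternatives. Scripts were tested on simulated data.

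The 10 markers are always named. Also named are the 3 genes most like each (mean of at least 1 CPM), further layer genes past the threshold in the averaged age contrast, up to 6 per direction, and cell type markers whose level stands beside a result. One gene that this rule names is not reported here. The markers and gene lists were chosen with earlier results of these data known.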

Additional observations from a re-analysis of the deposited data

Results flagged for a closer look

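In 3 of 60 marker-by-group sets of 4 or 5 libraries, 1 library lay far from the others by Dixon's criterion, and chance alone does this in about 1 in 20 sets. Calb1 was lowest in adult H2O morphine 5, at 88.8 CPM, where the next library had 125 CPM and the highest 137 CPM. Nxph4 was highest in the same library, at 5.32 CPM, where the next had 0.816 CPM and the lowest 0.240 CPM. Etv1 was lowest in adolescent Abx morphine 3, at 135 CPM, where the next library had 148 CPM and the highest 149.9 CPM.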

How the results depend on the processing

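Of the changes in log2 fold change under other settings, 7823 kept their direction or passed in neither setting, 14 came past the threshold, 23 lost it and 0 called values changed sign. In the averaged Abx contrast, 1 of the 10 markers passed (Calb1), where 10.2% of all genes did, and 1 over 34 libraries, where 13% did. The count was 0 without a filter on low counts (adjusted p = 0.105 by edgeR) and 0 with further deep-layer genes as a term over 35 libraries. With that term over 34 libraries Calb1 kept its call. When single libraries were left out the count was 0 to 1. For Calb1, DESeq2 gave an adjusted p of 0.0100 and edgeR with all 37 libraries 0.0331. In the averaged age contrast, 0 markers passed, against 1 (Etv1) over 34 libraries, 1 with a replicate block, 1 with the deep-layer term, 1 with that term over 34 libraries and 0 to 1 without single libraries. Within Abx and morphine the age count was 0, against 1 over 34 libraries, 1 with the deep-layer term over 34 libraries, 1 with the compared groups alone and 0 to 1 without single libraries. For morphine in adolescents on H2O it was 0, against 0 to 1 without single libraries. Of all genes, 20.3% passed in the averaged age contrast and 25.3% over 34 libraries, a larger share than 1 of the 10 markers. Within Abx and morphine, 1.87% of all genes passed in the age comparison, and 4.23% over 34 libraries. Shares of all genes under the other settings are not given here, so those marker counts cannot be set against a background. Beyond what these settings are built from, the cause of each move in the marker counts was not tested. Of 45 correlations, 44 kept their call without the library that stood apart and 1 lost it (Etv1 with Nxph4), and 80 group levels moved by less than 1 SD on unscaled totals.

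The labels do not say whether replicate numbers pair the libraries, and a check of correlations between libraries showed little sign of it. Deviations of same-numbered libraries had a median correlation of 0.0128 (-0.303 to 0.348, 108 pairs), against 0.00358 for other numbers (425 pairs), and 7 of 35 libraries correlated best with their own number. With the replicate block, Calb1 in the averaged Abx contrast was at -0.21 (adjusted p = 0.0437 by edgeR) and Etv1 in the averaged age contrast at -0.11 (adjusted p = 0.0456 by edgeR). Fits on the compared groups alone were not run for averaged contrasts and interactions. Depth limits Nxph4 most, at 3 to 131 counts per library, and 3 to 5 libraries per group limit every single comparison.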
